A study of Arabidopsis thaliana with 9 samples.

Results

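Whole Arabidopsis thaliana plants with a null mutation of HDA6 were compared with plants called a double transformant, across all probe sets of the Affymetrix ATH1 array. The comparison took the 3 arrays titled as null mutant and the 3 titled as double transformant, 6 of the 9 arrays in the study, and described all 22746 probe sets that remained after 64 control sets were left out of 22810. The null mutant came from the source rts1-1, labelled as an EMS-induced mutation in HDA6. The double transformant came from the source Columbia and its labels name no HDA6 mutation; what it carries is not given in the sources used here. All plants were of the Col-0 strain and were 35 days old, raised under constant light at 21 ºC on plates of Murashige and Skoog medium. A group of 3 arrays from an amino acid substitution mutant, also labelled rts1-1, shared the fit. The labels do not say whether both mutant groups are separate lines, and HDA6 itself has no named probe set here, so its own level could not be given.

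HDA6 is a histone deacetylase of the RPD3 type. Such enzymes take acetyl groups off histone tails, and acetylated chromatin is as a rule the more readily transcribed. In Arabidopsis, HDA6 is known for its part in the silencing of transposable elements, repeats and transgenes, often at loci that also carry DNA methylation, and for roles in flowering and in stress responses.

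The deposited values were linear MAS5 signals. Median signals per array ran from 31.79 to 36.82, and precision is limited by the small number of arrays. Null mutant 3 and double transformant 3 stood apart: their mean correlations with the other arrays were 0.9445 and 0.9458, against 0.9541 to 0.9668 in the other 7. Their signal ratios between the 3' and 5' GAPDH control probe sets were 1.953 and 2.154, against 1.383 to 1.824. Null mutant 1 and double transformant 1 had titles ending in rpt, as did substitution mutant 3, and the night humidity given for double transformant 1 was 35%, against 53% elsewhere. Whether a group's arrays stand for separately grown plants is not stated in the labels, so the spread behind the p-values may be technical. RNA came from whole plants, so more cells of a type and more RNA per cell cannot be told apart.

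The null mutant differed from the double transformant mostly by higher signals. In limma, with log2(signal + c) and c = 4.033, 150 probe sets rose at a Benjamini-Hochberg adjusted p under 0.05, which is 0.659% of those tested, and 23 fell, which is 0.101%. Together the 173 calls made up 0.761% of the probe sets, and 2533 probe sets (11.1%) had an unadjusted p under 0.05. The rises were large: their median log2 difference was 1.76, with 57 above 2, 19 above 3 and 11 above 4. Over all levels together the falls were smaller, with a median of -1.06 and 3 beyond 2 in size. Within classes of bright probe sets the sizes were alike or larger for falls. At mean double transformant signals from 100 to 500 the medians were 1.05 for rises and -1.06 for falls, and above 500 they were 0.86 and -1.04. The median log2 difference over all 22746 probe sets was 0.019, and their middle 90% lay between -0.606 and 0.84. In all 173 calls the 3 null mutant arrays lay on one side of the 3 double transformant arrays, as in 13.7% of all probe sets (8.19% with the null mutant above and 5.49% with it below).

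The counts of calls depended on the fit and on single arrays. Rises and falls were 52 and 6 with only the 6 compared arrays in the fit, 43 and 2 in an unmoderated test, and 50 and 11 when the arrays titled rpt were left out. Leaving out null mutant 1, 2 or 3 in turn gave 66, 239 and 91 rises, and leaving out double transformant 2 or 3 gave 86 and 91. Leaving out null mutant 1, 2 or 3 in turn gave 7, 100 and 9 falls, leaving out double transformant 1, 2 or 3 gave 36, 9 and 6, and leaving out substitution mutant 3 gave 15. Across the 9 fits that each left out 1 array, 56 of the 150 rises and 5 of the 23 falls were called every time.

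**Figure D1:**
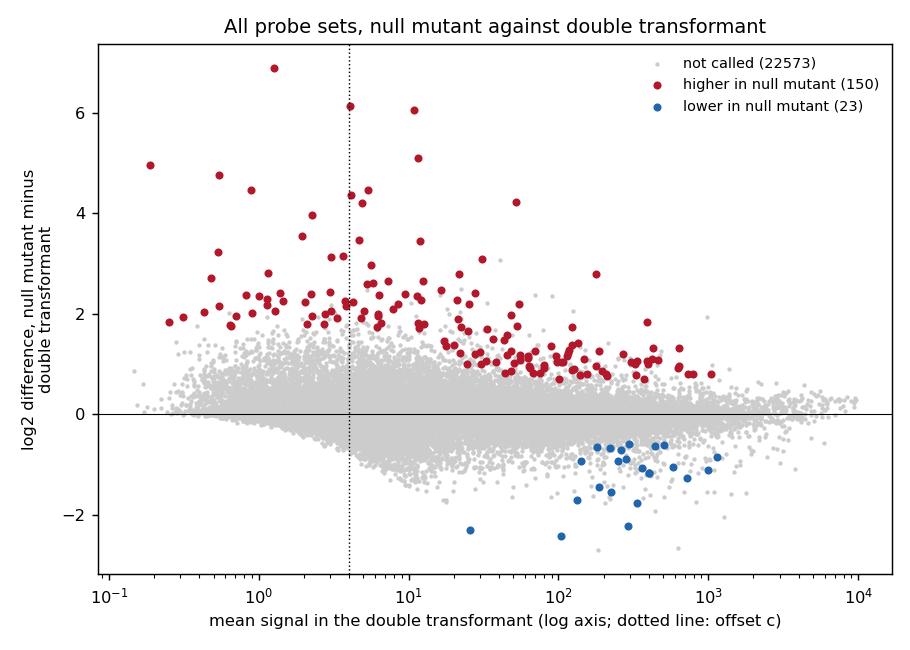
Log2 difference of the null mutant minus the double transformant (vertical axis) against the mean signal in the double transformant (log axis) for 22746 probe sets. Red points are the 150 probe sets called higher and blue points the 23 called lower at an adjusted p under 0.05 in limma; the dotted line is the offset c of 4.033. The rises reach 6.89, most of the largest at low double transformant signals, and the falls reach -2.42.

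The raised probe sets ran from nearly dark to bright in the double transformant. Their median signal was 110 in the null mutant and 23.5 in the double transformant. In 25 of the 150 all 3 double transformant arrays lay under c, the range close to background. All 3 null mutant arrays lay above c in every one of the 150. That follows in part from their choice as rises on log2(signal + c). Where the mean double transformant signal was under c, 37 of 4139 probe sets rose (0.894%), with a median log2 difference of 2.25. From c to 20, 32 of 5495 rose (0.582%), with a median of 2.36. From 20 to 100, 43 of 6748 rose (0.637%), and from 100 to 500, 32 of 5024 (0.637%), with median log2 differences of 1.22 and 1.05. Above 500, 6 of 1340 rose (0.448%), with a median of 0.86. Falls were counted almost entirely at higher levels, with 17 from 100 to 500 and 5 above 500, against 1 from 20 to 100 and 0 below c or from c to 20, where limma gave 8 and 175 lower probe sets at an unadjusted p under 0.05. By construction the offset c holds the log2 difference of a dim probe set close to 0, which limits falls at low levels. No test was made between these classes, because the double transformant arrays set both the class and the difference.

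**Figure D2:**
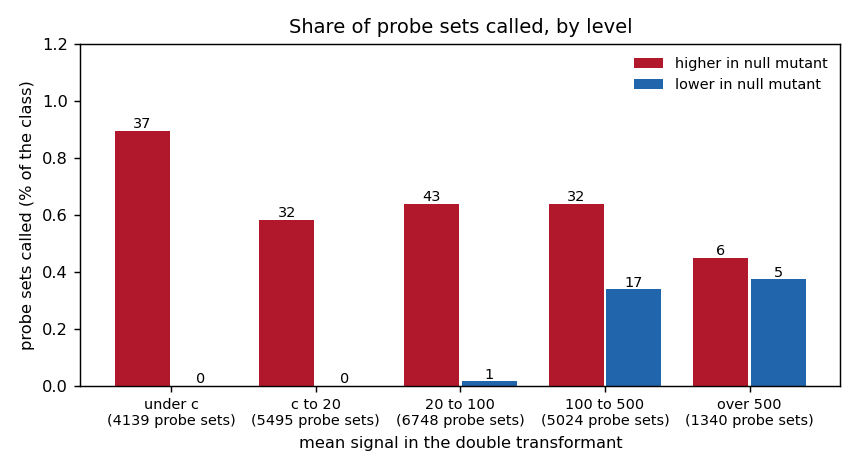
Share of probe sets called higher (red, left bar) and lower (blue, right bar) in the null mutant, in percent of each class of mean double transformant signal; the number above each bar is the count called. The share called higher ran from 0.894% under c to 0.448% above 500, and nearly all falls came from classes above 100.

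The largest rise was a probe set without a gene name here, and it was followed by genes that were dark or dim in every double transformant array. Probe set 266680_s_at, whose suffix marks probes that match more than 1 transcript, had signals of 627.1, 552.2 and 662.1 in the null mutant, against 0.566, 0.534 and 2.70 in the double transformant. All 3 double transformant signals lay under c, so the log2 difference of 6.89 ± 0.17 (SE, limma adjusted p = 1.08e-09) and its rank are set against background. AT1G58025, which encodes a protein with a bromodomain, the domain that binds acetylated lysines, had 468.0, 664.7 and 366.0 in the null mutant, against 0.969, 0.694 and 10.53 in the double transformant. Double transformant 3 was the highest of its group, and the log2 difference was 6.12 ± 0.36 (adjusted p = 5.49e-06). QQS, an orphan gene that acts on starch content and is known to vary epigenetically between plants, had 860.6, 1049 and 1064 in the null mutant, against 9.64, 12.56 and 10.55 in the double transformant. Its signals lay above c in both groups, though under the array medians in the double transformant, and were tight within each group. The log2 difference was 6.06 ± 0.13 (limma adjusted p = 3.24e-10).

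AT2G15560 had signals of 632.5, 415.6 and 541.1 in the null mutant, against 11.02, 10.03 and 13.40 in the double transformant, a log2 difference of 5.09 ± 0.16 (limma adjusted p = 1.01e-08). AT5G45570, annotated in the Ulp1 protease family, had 143.4, 152.2 and 92.83 in the null mutant, against 0.223, 0.151 and 0.194 in the double transformant, all far under c. Its difference of 4.95 ± 0.31 is therefore one from background. AT5G41660 was the most even in the null mutant, with 160.2, 163.5 and 161.3, against 5.65, 3.92 and 2.79 in the double transformant (4.36 ± 0.19). AT5G26270 was the brightest of the 15 largest rises with 1 gene name: it had 1249, 835.1 and 997.3 in the null mutant, against 43.14, 40.83 and 72.14 in the double transformant, so both groups were well above c (4.22 ± 0.20, adjusted p = 6.72e-07). AT5G24240, which encodes a kinase of the phosphatidylinositol 4-kinase gamma type, had 81.07, 100.8 and 95.45 in the null mutant, against 1.28, 1.07 and 4.44 in the double transformant (3.97 ± 0.25). The groups of each of these genes were separated by a wide gap.

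The rest of the 15 rose by 3.15 to 4.76 on the log2 scale: AT2G04000 by 4.76, AT5G07570 by 4.47, AT1G59930 by 4.45, AT2G04770 by 4.19, AT4G29370 by 3.55, AT5G01080 by 3.47, AT5G03090 by 3.44 and AT2G16670 by 3.15. AT2G04000, AT2G04770 and AT2G16670 are annotated as pseudogenes, and the probe sets of AT2G04000, AT1G59930 and AT2G04770 carry the suffix x, which marks probes shared with other transcripts, so their source is uncertain. All 15 kept their call in each of the 9 fits that left out 1 array. Set directly against the substitution mutant, 0 of the 15 were called in limma, with 7 at an unadjusted p under 0.05.

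**Figure D3:**
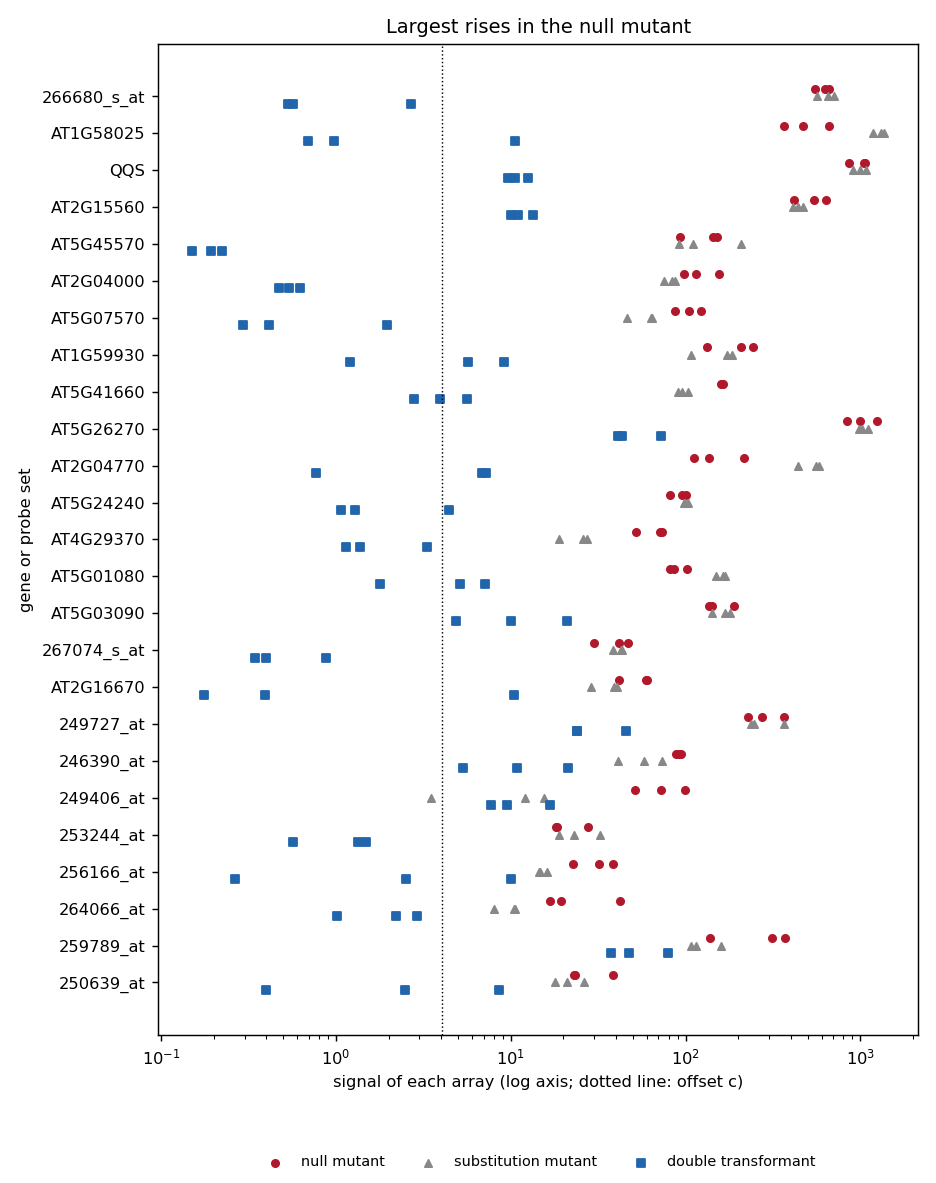
Signal of each array (log axis) for the 15 largest rises with 1 gene name and the 10 largest without, in order of their log2 difference. Red circles are the null mutant, grey triangles the substitution mutant and blue squares the double transformant, 3 arrays each; the dotted line is the offset c of 4.033. The red circles of every row lie to the right of its blue squares.

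Probe sets without a single gene name in the annotation made up a good part of the response. Of the 150 rises, 93 had 1 gene, 5 had several and 52 had none. These were 0.688% of the probe sets with 1 gene, 0.994% of those with several and 0.596% of those with none, so the unnamed probe sets were called higher at close to the rate of all probe sets. After 266680_s_at, the largest were 267074_s_at (several genes, 3.24), 249727_at (3.09), 246390_at (2.65) and 249406_at (2.35). Probe set 249727_at had 275.0, 226.9 and 365.5 in the null mutant, against 24.09, 23.88 and 45.45 in the double transformant, so both groups were well above c and far apart. Probe set 246390_at had 91.84, 88.28 and 94.29 in the null mutant, against 10.91, 21.39 and 5.31 in the double transformant. The other 5 of the 10, 253244_at, 256166_at, 264066_at, 259789_at and 250639_at, rose by 2.28, 2.23, 2.23, 2.19 and 2.14. Of the 10, 266680_s_at, 267074_s_at, 249727_at, 246390_at and 253244_at kept their call in all 9 fits without 1 array. Without double transformant 3 the log2 differences and adjusted p were 2.28 and 0.0999 for 249406_at, 2.15 and 0.136 for 256166_at, 2.33 and 0.0508 for 264066_at, 2.12 and 0.0729 for 259789_at and 2.08 and 0.133 for 250639_at. Without null mutant 1 all 5 were again not called, with adjusted p from 0.0541 for 249406_at to 0.156 for 256166_at. Some of the 5 were also not called without other arrays: 249406_at, 256166_at, 264066_at and 250639_at without double transformant 2 (up to 0.122), 249406_at, 256166_at, 259789_at and 250639_at without null mutant 3 (up to 0.128), 264066_at without double transformant 1 (0.0647), and 249406_at without null mutant 2 (0.057). Probe sets 256166_at and 250639_at also lost their call without any of the substitution mutant arrays (0.0701 to 0.0777).

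Both measured COR15 genes were among the brightest rises. COR15A and COR15B encode chloroplast proteins that are induced by cold and protect membranes from freezing. COR15A had signals of 2606, 505.3 and 1195 in the null mutant, against 107.7, 262.3 and 161.3 in the double transformant, a log2 difference of 2.78 ± 0.47 (limma adjusted p = 0.0187). COR15B had 2239, 928.7 and 1242 in the null mutant, against 450.7, 449.2 and 277.1 in the double transformant (1.83 ± 0.28, adjusted p = 0.0109). The groups did not overlap in either gene, but null mutant 1 had more than any other array and the null mutant arrays spread widely. The COR15A call was lost without null mutant 3 (adjusted p = 0.0764), and likewise without double transformant 1 (0.0625) or 3 (0.0967), and that of COR15B without double transformant 3 (0.0545). The genes are next to each other on chromosome 2 among measured loci.

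The list of cold, drought and abscisic acid genes, chosen with earlier results of these data known, had 4 of its 20 members measured under a gene name. Of the 4, 2 rose, against 0.659% of all probe sets, and their median log2 difference was 2.1. The other two were dehydrins, proteins that shield cells from water loss. LTI30 had 1010, 173.3 and 269.9 in the null mutant, against 97.03, 61.85 and 49.15 in the double transformant, a log2 difference of 2.37 that was not called (adjusted p = 0.0535). It was called without null mutant 1 (1.64, adjusted p = 0.0314) or null mutant 2 (2.90, adjusted p = 0.0128). COR47 overlapped between the groups, with 3231, 1303 and 2128 in the null mutant, against 1874, 1780 and 1628 in the double transformant (0.24, adjusted p = 0.786). In all 4 genes null mutant 1 was the highest array of its group and null mutant 2 the lowest. Null mutant 1 is the array of its group whose title ends in rpt, and the part of that in these differences was not tested.

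Other rises of genes with a known role are given here, picked after their values were seen and with no list or test behind the choice. M17, a late embryogenesis abundant protein, had 36.85, 57.24 and 65.20 in the null mutant, against 10.48, 5.00 and 1.81 in the double transformant (2.61 ± 0.34, limma adjusted p = 0.00425), and kept its call in all 9 fits without 1 array. HIS1-3, a linker histone H1 induced by drought, had 2002, 1098 and 1835 in the null mutant, against 652.2, 651.9 and 615.5 in the double transformant (1.31 ± 0.22, adjusted p = 0.0193). AT4G30650, a small membrane protein of a family responsive to cold and salt, had 1425, 777.7 and 1053 in the null mutant, against 388.6, 529.2 and 367.4 in the double transformant (1.31 ± 0.21, adjusted p = 0.0137), a call lost without null mutant 3 (0.0573) or double transformant 3 (0.0837). The groups of each of these genes were apart, and null mutant 2 was the lowest null mutant array for HIS1-3 and AT4G30650. DI21, a drought-induced gene, rose by 0.82 (adjusted p = 0.0469).

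The other raised genes with a gene symbol spanned several functions. EXPA8, an alpha-expansin that loosens cell walls, rose by 1.26 and was the 1 call among 18 expansin probe sets. These ran from -1.54 to 1.26, with a median of 0.26, 12 above 0 and 6 at an unadjusted p under 0.05. UGT78D1, which adds rhamnose to flavonols, rose by 1.21 and was the 1 call among 47 UDP-glycosyltransferase probe sets. Those ran from -1.14 to 1.57, with a median of 0.05, 26 above 0 and 7 at an unadjusted p under 0.05. Over all probe sets 0.761% were called and 11.1% had an unadjusted p under 0.05. SUFE2, a protein that activates cysteine desulfurase in iron-sulfur cluster assembly, rose by 1.74, SCPL27, a serine carboxypeptidase-like protein, by 1.05, and SAH7, of a pollen allergen family, by 0.80. These calls lay close to the threshold, with adjusted p from 0.0184 for UGT78D1 to 0.0401 for SCPL27. SUFE2 and SCPL27 were not called in any of the 9 fits without 1 array (adjusted p 0.0501 to 0.139 and 0.0521 to 0.142). DI21 was called without null mutant 2 and in none of the other 8 (0.0584 to 0.187). HIS1-3 and SAH7 were not called without double transformant 1, 2 or 3 or null mutant 1 or 3 (up to 0.0999 and 0.0939). EXPA8 was not called without double transformant 2 or 3 or null mutant 1 or 3 (up to 0.104), and UGT78D1 without double transformant 2 or 3 or null mutant 1 (up to 0.0942).

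Pseudogene loci, many of them remnants of transposable elements in Arabidopsis, held 26 of the rises. In the RefSeq annotation of TAIR10.1, 26 of 923 probe sets at pseudogenes rose (2.82%), against 65 of 12443 at protein-coding genes (0.522%), shares whose difference was not tested. The median log2 difference over all probe sets was 0.112 at pseudogenes and 0.022 at protein-coding genes, and 1 pseudogene and 10 protein-coding genes fell. Pseudogene probe sets were dim in the double transformant, with a median signal of 2.69 against 29.6 at protein-coding genes. Without both null mutant 3 and double transformant 3 the counts were 12 (1.3%) at pseudogenes and 27 (0.217%) at protein-coding genes, and without the arrays titled rpt 5 (0.542%) and 31 (0.249%). Leaving out 1 array at a time gave 8 (without null mutant 1) to 24 (without null mutant 2) raised pseudogenes and 33 to 118 raised protein-coding genes in the same 2 fits. The pseudogene count was 13 when null mutant 3 was left out, and leaving out double transformant 1, 2 or 3 in turn gave 12, 9 and 16, and substitution mutant 1, 2 or 3 in turn 17, 14 and 14. The protein-coding count was 41 and 42 when double transformant 2 or 3 was left out. Of the 26 raised pseudogene probe sets, 15 had the plain suffix and the others can share signal with related copies. AT2G26630 was one of the clearer cases, with 73.32, 82.86 and 57.11 in the null mutant, against 3.87, 7.12 and 5.86 in the double transformant (2.96 ± 0.25, limma adjusted p = 1.24e-04). AT1G43590 had 146.9, 168.8 and 175.5 in the null mutant, against 33.91, 29.30 and 20.09 in the double transformant (2.42 ± 0.19, adjusted p = 6.2e-05), and was readable in both groups. Both were chosen after their values were seen, and both kept their call in all 9 fits without 1 array.

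By chromosome, 15, 19, 17, 14 and 27 probe sets with 1 gene rose on chromosomes 1 to 5, which is 0.435%, 0.864%, 0.619%, 0.714% and 0.898% of those measured there. No chloroplast probe set was called among 69 in limma, with 3 at an unadjusted p under 0.05 and a median log2 difference of 0.031. Of 92 raised nuclear loci, 20 (21.7%) had another raised locus with at most 5 measured loci between, against 7.41% of all 13217 measured nuclear loci, a difference that was not tested. Of the 20, 6 lay in a stretch of chromosome 5 known from earlier work on these data. Beside COR15B and COR15A, these included the pseudogenes AT2G23480 (2.09) and AT2G23500 (2.16), and the pseudogene AT2G15510 (2.59) close to AT2G15560 (5.09). The call of AT2G15510 was lost without null mutant 1 or 3 (adjusted p 0.0596 and 0.0567) or double transformant 3 (0.0568), and that of AT2G23500 without double transformant 2 (0.0501). AT2G23480 was called without double transformant 3 and in none of the other 8 fits without 1 array (0.0508 to 0.137).

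On chromosome 5, most measured genes from AT5G39250 to AT5G40190 had moderately higher signals in the null mutant. The ends of this stretch were taken from earlier work on the same data, so its values are given as a description. It held 46 measured loci, of which 8 were called higher and 0 lower in limma (18 and 0 at an unadjusted p under 0.05). The shares over all probe sets were 0.659% higher and 0.101% lower, with 11.1% at an unadjusted p under 0.05 in either direction. In 41 of the 46 loci the log2 difference was above 0, and the median was 0.63. In the 15 loci whose level over all 9 arrays was above the median of the array, the log2 difference ran from 0.58 to 1.76, with a median of 0.96. The 20 loci of that level on either side had medians of -0.07 and -0.06, with 0 called in limma and 3 and 5 at an unadjusted p under 0.05.

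AT5G39850 had the largest difference of the 8: 189.3, 179.9 and 188.7 in the null mutant, against 63.63, 52.38 and 42.14 in the double transformant (1.76 ± 0.15, limma adjusted p = 1.35e-04). AT5G39410 had 320.6, 314.1 and 347.3 in the null mutant, against 114.5, 121.8 and 135.9 in the double transformant (1.37 ± 0.12, adjusted p = 1.78e-04). AT5G39730 rose by 1.19, AT5G39600 by 1.15, AT5G39980 by 0.99, AT5G40190 by 0.85, AT5G39570 by 0.80 and AT5G39590 by 0.80. AT5G39570 was the brightest of them, with 2201, 1458 and 1875 in the null mutant, against 1105, 1058 and 971.4 in the double transformant. AT5G39980 was not called in any of the 9 fits without 1 array (adjusted p 0.057 to 0.131). AT5G39570 was called without null mutant 2 and in none of the other 8 (0.0729 to 0.161). AT5G39600 was not called without null mutant 1 (0.0562), null mutant 3 (0.0536) or, on the other side, double transformant 3 (0.0517), and the other 5 kept their call in all 9.

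**Figure D4:**
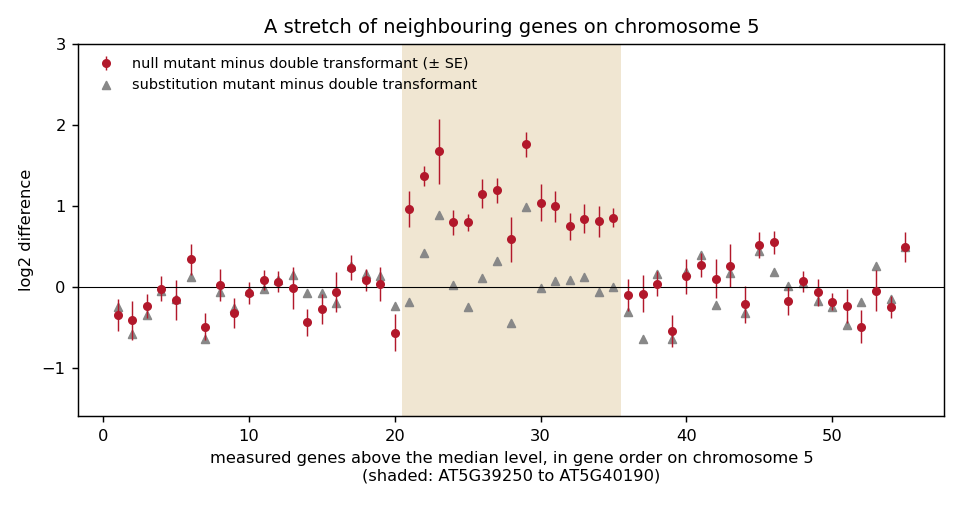
Log2 difference from the double transformant for measured genes above the median level, in gene order on chromosome 5. Red circles with bars (SE) are the null mutant and grey triangles the substitution mutant; the shaded stretch runs from AT5G39250 to AT5G40190 and holds 15 genes, with 20 on either side. The red circles of the shaded stretch lie between 0.58 and 1.76, and those on either side between -0.57 and 0.55.

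The falls were few, moderate and mostly of genes that were well expressed in the double transformant. Their median signal was 151 in the null mutant and 291 in the double transformant, and 11 of the 23 had 1 gene name. The largest was AT4G16870, a locus annotated as a pseudogene, which had 14.06, 13.10 and 21.55 in the null mutant, against 85.11, 102.5 and 123.0 in the double transformant (-2.42 ± 0.25, limma adjusted p = 6.11e-04). It ran against the direction of the 26 raised pseudogenes, and its groups were far apart. AT4G38225 had 187.6, 213.6 and 137.7 in the null mutant, against 444.0, 400.6 and 368.7 in the double transformant (-1.17 ± 0.16, adjusted p = 0.00475). LCR68, a small cysteine-rich protein of the plant defensin type, had 152.0, 228.4 and 157.2 in the null mutant, against 384.8, 420.8 and 395.2 in the double transformant (-1.17 ± 0.15, adjusted p = 0.00444). It was the 1 call among 15 defensin-like probe sets, against 0.761% called over all probe sets. The 15 ran from -1.19 to 0.56, with a median of -0.18 and 5 above 0. Of them 3 had an unadjusted p under 0.05, against 11.1% of all probe sets. AT2G36950, with a heavy metal-associated domain, had 112.3, 132.2 and 139.4 in the null mutant, against 224.9, 281.2 and 241.5 in the double transformant (-0.94 ± 0.13, adjusted p = 0.00669). These 4 kept their call in all 9 fits without 1 array.

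The other 7 named falls lost their call when certain arrays were left out. AT4G21870, a protein of the small heat shock type, had 58.72, 169.5 and 83.26 in the null mutant, against 384.9, 308.8 and 307.7 in the double transformant (-1.77 ± 0.31, limma adjusted p = 0.0213). AT4G16563 fell by 1.45 and AT1G66180 by 1.04, both annotated as aspartyl proteases, AT5G65660 by 0.85, ATSPS4F, a sucrose-phosphate synthase, by 0.71, AT2G25870 by 0.67 and AT3G59020 by 0.59. AT1G66180 had 272.7, 284.1 and 257.2 in the null mutant, against 472.5, 805.1 and 468.6 in the double transformant, so double transformant 2 stood above the rest. Of the 11 named falls, leaving out null mutant 1, 2 or 3 in turn ended 7, 0 and 7 calls, leaving out double transformant 1, 2 or 3 ended 4, 5 and 6, and leaving out substitution mutant 1, 2 or 3 ended 1, 4 and 4. The highest adjusted p among those fits was 0.0928 for AT4G21870, 0.112 for AT4G16563, 0.102 for AT1G66180, 0.124 for AT5G65660, 0.126 for ATSPS4F, 0.148 for AT2G25870 and 0.113 for AT3G59020.

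Among the falls without a gene name, 259252_at had 3.36, 1.66 and 0.776 in the null mutant, all under c, against 16.60, 29.25 and 30.99 in the double transformant (-2.30 ± 0.40). Probe set 249765_at had 59.56, 49.21 and 48.78 in the null mutant, against 129.5, 428.2 and 315.8 in the double transformant (-2.23 ± 0.41). The log2 differences of 253485_at, 254042_at and 264751_at were -1.72, -1.56 and -1.27. All 5 lost their call without double transformant 2 (limma adjusted p 0.0626 to 0.118) or double transformant 3 (0.0824 to 0.151). Without null mutant 1 the call was lost for 4 of them (up to 0.0868), without null mutant 3 for 3 (up to 0.108), and without double transformant 1 it was lost for 253485_at (0.0553). Probe set 249765_at also lost it without null mutant 2 (0.0553) or substitution mutant 1 (0.0556), and 259252_at without substitution mutant 3 (0.05).

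**Figure D5:**
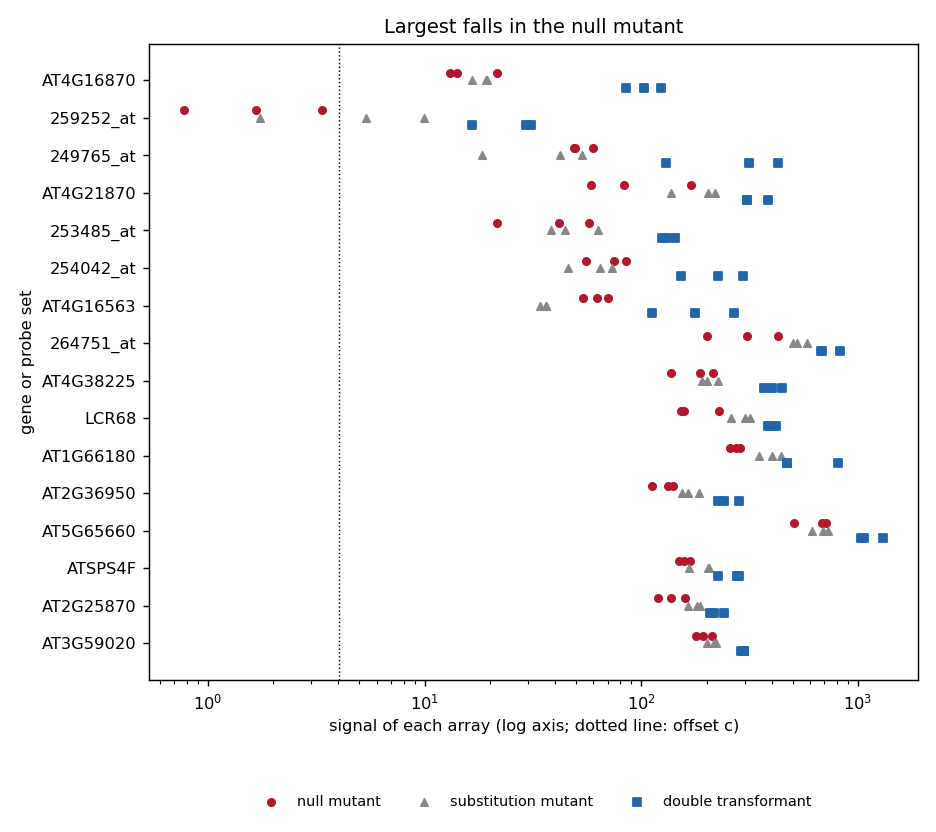
Signal of each array (log axis) for the 11 falls with 1 gene name and the 5 largest without, in order of their log2 difference. Red circles are the null mutant, grey triangles the substitution mutant and blue squares the double transformant, 3 arrays each; the dotted line is the offset c of 4.033. The red circles of every row lie to the left of its blue squares, and the gap is small for AT2G25870 and AT3G59020.

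Some large differences missed the threshold although the groups did not overlap. AT1G12030 had 29.61, 76.12 and 4.70 in the null mutant, against 216.6, 164.1 and 171.0 in the double transformant, a log2 difference of -2.70 ± 0.57 (limma adjusted p = 0.0612). It was larger than that of any called fall, but the null mutant arrays were far from each other, and it was called without null mutant 2 (-3.44, adjusted p = 0.00387) or null mutant 3 (-1.84, adjusted p = 0.0351). AT2G21820, AT3G60170 and AT2G19970 had log2 differences of 2.37, 2.17 and 2.1 (adjusted p = 0.125, 0.0503 and 0.181). AT3G60170 was called without double transformant 3 (2.64, adjusted p = 0.0185) or null mutant 3 (2.50, adjusted p = 0.0492), and AT2G21820 without null mutant 2 (2.89, adjusted p = 0.0474).

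Few members of the other pathway lists could be measured under a gene name, and apart from QQS none of those was called by limma. Of 39 genes of the silencing machinery 4 were measured, with log2 differences from -0.25 to 0.05 and 0 at an unadjusted p under 0.05. They included DME, a DNA glycosylase that removes methylated cytosine (-0.17, adjusted p = 0.773), and LDL2, a histone demethylase homologue (-0.25, adjusted p = 0.841). Among 4 flowering genes, 1 had an unadjusted p under 0.05. This was GI, a clock gene that promotes flowering, with 485.8, 460.9 and 357.6 in the null mutant, against 293.1, 224.1 and 295.8 in the double transformant (0.67 ± 0.15, adjusted p = 0.0812). Its groups did not overlap. The silenced targets list held 4 genes, of which QQS alone was measured.

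Of 2 measured heat shock genes, ATHSP22.0 had 1.57, 1.32 and 0.767 in the null mutant, all under c, against 10.83, 8.16 and 11.03 in the double transformant (-1.42, limma adjusted p = 0.169). It was the 1 heat shock gene at an unadjusted p under 0.05. Jasmonate and ethylene (1 measured), senescence (3), anthocyanin (3) and acetate and fermentation (4) had medians of -0.54, 0.13, 0.42 and 0.01, with 0 at an unadjusted p under 0.05. The salicylate and glucosinolate lists had 0 measured members. Among families grouped by gene symbol, 0 of 42 AGAMOUS-like, 26 cytochrome P450, 14 glutathione transferase and 9 xyloglucan hydrolase probe sets were called. At an unadjusted p under 0.05 there were 1, 1, 3 and 5, and the medians were -0.07, -0.04, 0.34 and -0.90. Over all probe sets 0.761% were called and 11.1% had an unadjusted p under 0.05. The 9 xyloglucan hydrolase probe sets ran from -1.69 to 0.66, with 2 above 0. No family was tested as a set.

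Markers of plant organs, read as a check on the whole-plant label, were not called in limma either. The summed signal of 2 green tissue markers, LHCB4.1 and RCA, was 16200, 8870 and 15800 in the null mutant, against 9680, 11500 and 14900 in the double transformant, and it overlapped. Root hair and root markers (3 measured) summed to 4.60 to 16.9 in the null mutant and 5.60 to 14.3 in the double transformant, all close to c. Tapetum and pollen markers (4 measured) summed to 2.43 to 23.7 in the null mutant and 5.98 to 46.2 in the double transformant. Of these, ANX2 had 0.209, 0.679 and 0.929 in the null mutant, against 7.13, 0.6355 and 11.56 in the double transformant (-1.01, limma adjusted p = 0.353). SHT had 0.5635, 1.11 and 9.855 in the null mutant, against 13.63, 4.361 and 24.08 in the double transformant (-1.22, adjusted p = 0.414). The null mutant signals of both genes were mostly under c, and the groups overlapped. Floral organ markers (2 measured) summed to 44.2 to 57.0 in the null mutant and 17.3 to 34.8 in the double transformant, without overlap. Of all single probe sets, 8.19% had the null mutant above without overlap. SPT and UFO, regulators of carpel and flower development, had log2 differences of 0.65 and 1.01 (limma adjusted p = 0.385 and 0.306). Most of each sum came from SPT. UFO was close to c, with 2.58, 7.27 and 11.85 in the null mutant, against 1.005, 1.91 and 0.779 in the double transformant. The seed storage protein gene PAP85 had 31.47, 146.2 and 74.87 in the null mutant, against 34.67, 4.65 and 16.16 in the double transformant (1.98, adjusted p = 0.168). Of these lists, 2 of 2 floral, 2 of 4 tapetum and pollen and 1 of 1 seed markers had an unadjusted p under 0.05. Among 2 green tissue and 3 root markers there were 0. Over all probe sets the share was 11.1%. The part of organ makeup in the called differences was not tested.

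The direct contrast of both mutant groups asked where the probe sets called against the double transformant also set the null mutant apart from the substitution mutant. Over all probe sets 9 were called in limma (0.0396%). Among the 150 rises, 7 were also higher in the null mutant in this contrast, and 0 of the 23 falls differed (55 and 9 at an unadjusted p under 0.05). The median null minus substitution difference was 0.28 over the rises and -0.27 over the falls. These probe sets were chosen with the same 3 null mutant arrays, so medians of these signs are in part expected from the choice alone. All 7 lay in the chromosome 5 stretch by gene, or had probe set numbers between those of its genes. AT5G39410, AT5G39590 and AT5G40190 had null minus substitution differences of 0.95, 1.05 and 0.86 (adjusted p = 0.0259, 0.00678 and 0.033), and the 15 brighter loci of the stretch had a median of 0.88. Leaving out single arrays changed this count from 7 to 34 without null mutant 2, to 3 without null mutant 1, double transformant 2 or 3 or substitution mutant 2, and to 0 without null mutant 3 or substitution mutant 1 or 3.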

How the data were processed

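Signal intensity values of 9 single-colour Affymetrix ATH1 arrays were used as deposited, one column per array. The submitters made them with MAS5 and GCOS, per the submitters' processing notes; the versions are not given in the sources used here. Per the labels' protocols, RNA was purified with RNeasy and labelled with biotin by a 3' IVT Express kit. The mean of each array after trimming 2% at each end was 100.01, so the deposited intensity values had been scaled to a common level. Detection calls were not used here.

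Groups and replicate numbers came from the titles. Control probe sets were left out, c was the 20th percentile of all values, and log2(signal + c) values of all 9 arrays were fitted together with limma 3.58.1 (R 4.3.3), using an intensity trend and Benjamini-Hochberg adjustment over 22746 probe sets. Differences on this scale understate changes of dim probe sets.

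Gene names came from GEO's platform annotation, which gave 13513 probe sets 1 gene, 503 several and 8730 none, updated through RefSeq TAIR10.1 (13436 matched), used for names, classes and gene order.

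Genes named were the 15 largest rises and 12 largest falls with 1 gene among non-overlapping calls (11 falls existed), the 10 and 5 largest without, the 5 largest uncalled, the 3 brightest calls each way, and up to 4 called members of each list or the 2 with the smallest p. Members and lists were chosen with earlier results of these data known. Same-numbered arrays had deviations that correlated between -0.0409 and 0.154, and differently numbered arrays between -0.169 and 0.158. Numbers were not treated as pairs. Between null mutant and double transformant, arrays 1, 2 and 3 correlated at 0.0385, 0.0404 and 0.154 with their same-numbered counterparts. Differently numbered arrays of these groups ran from -0.169 to 0.158.

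Alternatives changed the offset, dropped dim probe sets, and used other normalizations, variance priors, weights, samples, blocks and thresholds, and leaving out arrays.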

Additional observations from a re-analysis of the deposited data

Results flagged for a closer look

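At 7 of the probe sets raised against the double transformant, limma called the null mutant apart from the substitution mutant as well. The count was 0 without null mutant 3, without substitution mutant 1 or 3, with no intensity trend and in the unmoderated test. Both contrasts also share the null mutant arrays by which the raised probe sets were chosen. Null minus substitution log2 differences were 0.95 for AT5G39410, 1.05 for AT5G39590 and 0.86 for AT5G40190, all in the chromosome 5 stretch. The others were 0.90 for 249393_at, 1.26 for 249396_at, 1.11 for 249421_at and 1.12 for 249453_at, which have no gene name here and probe set numbers within the range of that stretch. Probe set 249453_at had 737.5, 884.6 and 776.6 in the null mutant, against 430.3, 397.1 and 360.7 in the double transformant. No group of 4 or more arrays was present, so single arrays were not screened as outliers.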

How the results depend on the processing

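Against 150 rises, 23 falls and 7 probe sets apart from the substitution mutant, counts within 1.5 times came from offsets of 0.5 and 2 times c, the filter on dim probe sets, quantile normalization and array weights. The replicate block, for numbers not treated as pairs, gave 142, 34 and 5. The counts were 52 and 6 with only the 6 arrays compared, 50, 11 and 4 without the arrays titled rpt, 54 and 5 at an adjusted p under 0.01, 43 and 2 in the unmoderated test, and 55 and 2 without null mutant 3 and double transformant 3. Falls were 8 with no intensity trend. The count apart from the substitution mutant was 11 at 8 times c, 4 with arrays centred on their medians, 0 with no intensity trend, in the unmoderated test and without null mutant 3 and double transformant 3, 3 at an adjusted p under 0.01 and 4 with the rpt titles as a term, which gave 126 rises and 21 falls. Fits without 1 array gave 66 to 239 rises and 6 to 100 falls. The causes were not tested. Counts at pseudogenes without certain arrays were added after seeing the data. Quantile normalization moved the median of all probe sets to -0.017 and centring to -0.067, against 0.019. Rises made up 86.7% of calls, against 78.4% after centring and 70.5% without null mutant 2.

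The sign of 7 uncalled genes turned under some settings; ranges are over the fits without 1 array. AT1G53540 (-0.52 to 0.40) was at 0.02 with weights, 0.40 without double transformant 3, and 0.19 and 0.16 without null mutant 1 and 2. RCA (-0.22 to 0.21) was at 0.06 with weights, 0.19 without double transformant 3, 0.09 without null mutant 3 and double transformant 3, and 0.21 without null mutant 2. WRKY53 (-0.16 to 0.72) was at -0.26 without the rpt arrays and -0.16 without null mutant 1, WRKY6 at 0.03 and AT3G49960 (-0.20 to 0.08) at 0.12 without the rpt arrays, and AT3G49960 at 0.08 without double transformant 1. ACS (-0.42 to 0.11) was at 0.05 without null mutant 3 and double transformant 3 and 0.11 without null mutant 3, and AT4G14090 (-0.06 to 1.01) at -0.06 without null mutant 3.

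Signals near c set the limit for dim probe sets.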

Other observations

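Probe sets without a single gene name were also raised in the number range of the chromosome 5 stretch. The ends of that stretch came from earlier work on these data, so the values are given as a description. Of 21 probe sets there without a single gene name and with a level above the median, 9 were called higher in the null mutant by limma and 0 lower. Over all probe sets the shares were 0.659% and 0.101%. The log2 differences of the 21 ran from -0.63 to 1.55, with a median of 0.73. Their median signal was 131 in the null mutant, 92.1 in the substitution mutant and 90.5 in the double transformant. Of 65 probe sets with 1 gene name in that number range, 43 lay in the stretch, so the place of the unnamed ones on the chromosome is not known from these tables.

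Further raised genes, chosen after their values were seen, included AT5G03350, a lectin-like protein induced by salicylic acid, with 121.6, 87.13 and 104.1 in the null mutant, against 18.83, 22.84 and 7.57 in the double transformant (2.48 ± 0.28, limma adjusted p = 0.0013). AT4G29200 had 45.22, 50.25 and 65.06 in the null mutant, against 7.10, 0.855 and 1.16 in the double transformant (3.12 ± 0.31). AT5G60610 had 36.83, 22.44 and 40.85 in the null mutant, against 1.1, 1.22 and 1.11 in the double transformant (2.82 ± 0.32). All double transformant signals of AT5G60610 lay under c, as did the 0.855 and 1.16 of AT4G29200, so these differences are set against background. The groups of all 3 genes were apart, as in every call, and each kept its call in all 9 fits without 1 array.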
